A study of Homo sapiens with 24 samples.

Results

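Named antisense transcripts are RNAs that carry the name of a protein-coding gene followed by -AS and, as a rule, a number, such as A1BG-AS1. The expression array held 95 such names on 118 probes, of 32577 names on 42405 probes in all. A name was taken when it ended in -AS with or without a number in the gene name column of the array's scanner files, and for 94 of the 95 the sense partner, which is the gene named before -AS, was on the array as well (91 different genes). Each of the 16 arrays compared 1 treated culture with 1 control culture of an established human cancer cell line. PC3, DU145 and LNCap are prostate cancer (PCa) lines, A498 and 786O are renal cell carcinoma lines, and FaDu and SAS are head and neck squamous cell carcinoma lines. Genistein, a soy isoflavone, was given to PC3 and DU145 with a control that the labels call untreated and the study's methods call vehicle (DMSO). Wogonin, a plant flavone, was given to SAS and FaDu with DMSO-treated cells as control. An siRNA against CAV2 (si-CAV2) was put into A498 and 786O and an siRNA against LAMB3 (si-LAMB3) into FaDu and SAS, each with a control siRNA. The miRNAs miR-145 (PC3, DU145 and LNCap), miR-375 (FaDu), miR-23b, miR-24 and miR-27b (PC3) and miR-29a (SAS) were each set against cells given a control miRNA. A treatment was hybridised once in each line, so that the 2 or 3 lines of a treatment were its only replicates, and 5 of the 10 treatments had 1 array here.

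An antisense transcript is read from the DNA strand opposite its partner gene. It may start close to the partner's own start in a shared, divergent promoter, or lie inside the partner, or overlap its far end. Some such RNAs are known to act on the partner's promoter, on its RNA or on its chromatin, others act elsewhere in the cell, and some are the leftover exons of genes whose introns hold small nucleolar RNAs (snoRNAs). The name of an antisense transcript therefore gives its place and not its function.

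The values are log2 ratios of treated over control RNA (Cy5 over Cy3), and where a transcript had several probes the brightest was read. A probe was called measured on an array when it was well above background in at least 1 channel. The probes below are those on which the main results rest. They are printed 5′ to 3′ as the array design gives them, with positions on hg19. The first lines are ZNFX1-AS1 (chr20:47905716-47905775, plus strand), EPB41L4A-AS1 (chr5:111497889-111497948, plus) and C17orf76-AS1 (chr17:16345210-16345270, plus), which rose with genistein in both PCa lines. Then come ZNF503-AS2 (chr10:77168623-77168682, plus) and OIP5-AS1 (chr15:41591663-41591722, plus), which moved together with their partners, ZEB1-AS1 (chr10:31605467-31605526, minus), which moved in opposite directions under different treatments, and BDNF-AS1 (chr11:27699226-27699285, plus), which did not move with its partner.
ZNFX1-AS1: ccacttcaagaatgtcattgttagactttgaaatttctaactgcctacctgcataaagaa
EPB41L4A-AS1: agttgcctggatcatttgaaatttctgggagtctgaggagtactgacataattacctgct
C17orf76-AS1: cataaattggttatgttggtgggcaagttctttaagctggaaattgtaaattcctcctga
ZNF503-AS2: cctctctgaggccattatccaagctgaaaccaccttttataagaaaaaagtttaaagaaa
OIP5-AS1: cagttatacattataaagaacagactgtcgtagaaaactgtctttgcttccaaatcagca
ZEB1-AS1: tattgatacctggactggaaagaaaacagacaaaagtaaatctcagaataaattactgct
BDNF-AS1: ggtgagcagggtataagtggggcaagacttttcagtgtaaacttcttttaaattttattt

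The probes of a transcript and its partner lay on opposite strands for 91 of the 94 pairs. They lay on the same strand for HNRNPU-AS1 and AKIRIN2-AS1, and 1 probe had no position. In current RefSeq 92 of the 95 transcripts had an entry, and 28 had been renamed. ZNFX1-AS1 is now ZFAS1, C17orf76-AS1 is SNHG29, HOXB13-AS1 is PRAC2, CECR5-AS1 is HDHD5-AS1 and ZNRD1-AS1 is POLR1HASP, and the accession of HNRNPU-AS1 now belongs to HNRNPU itself, so that this pair may read 1 gene. ATPAF1-AS1 is now TEX38 and C1QTNF9B-AS1 is PCOTH. Both, like RUSC1-AS1, carry RefSeq entries of the mRNA kind, so the name does not make them non-coding. RefSeq (GRCh38.p14) gave a start for both genes of 53 pairs. The starts were within 1000 bases of each other in 20 pairs, inside the partner gene in 18 and outside it in 15.

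HOXA11-AS1, now HOXA11-AS, is an example of the first kind. It started 176 bases from HOXA11, a homeobox gene that patterns limbs and the reproductive tract, on the other strand. The window of 300 bases around its start (chr7:27185158-27185457, plus strand, GRCh38.p14) is shown because the 2 transcripts also differed between the cell lines in the same direction. Capitals mark the 275 bases that it shares with the window around the start of HOXA11.
HOXA11-AS: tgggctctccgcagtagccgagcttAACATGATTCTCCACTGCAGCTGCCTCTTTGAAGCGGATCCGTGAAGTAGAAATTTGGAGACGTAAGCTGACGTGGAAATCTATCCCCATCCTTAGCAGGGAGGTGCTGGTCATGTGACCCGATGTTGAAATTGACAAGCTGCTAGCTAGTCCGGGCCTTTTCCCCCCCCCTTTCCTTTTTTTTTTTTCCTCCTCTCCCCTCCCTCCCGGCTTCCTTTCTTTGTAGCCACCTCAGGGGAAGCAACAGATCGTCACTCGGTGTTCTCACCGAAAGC

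Many of these transcripts were dim. Of the 95, 29 (30.5%) were measured on all 16 arrays, against 49.8% of all names on the array, 40 on at least 12 arrays, 33 on 1 to 11 arrays and 22 (23.2%, against 16.9% of all names) on none. Everything below is about the 73 that were measured somewhere, and the number measured is given with each treatment. The share of all spots well above background ran from 55.0% to 67.6% in the control channel and from 63.9% to 68.9% in the treated channel. Markers fitted the labelled tissue for LNCap (5 of 5 prostate luminal markers above background), A498 (4 of 4 renal) and FaDu (5 of 5 squamous), 786O had 3 of 4 renal and SAS 4 of 5 squamous markers. KLK3, which encodes prostate-specific antigen, was not above background in PC3, and HOXB13 was not in DU145. CAV2 had log2 ratios of -3.80 and -3.20 on the si-CAV2 arrays, below the other 14 arrays. LAMB3 had -2.50 in FaDu with si-LAMB3, but -0.89 in SAS, which was within the range of the other arrays (-2.11 to 4.21), so the array labelled si-LAMB3 in SAS is read below with that limit.

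**Figure D1:**
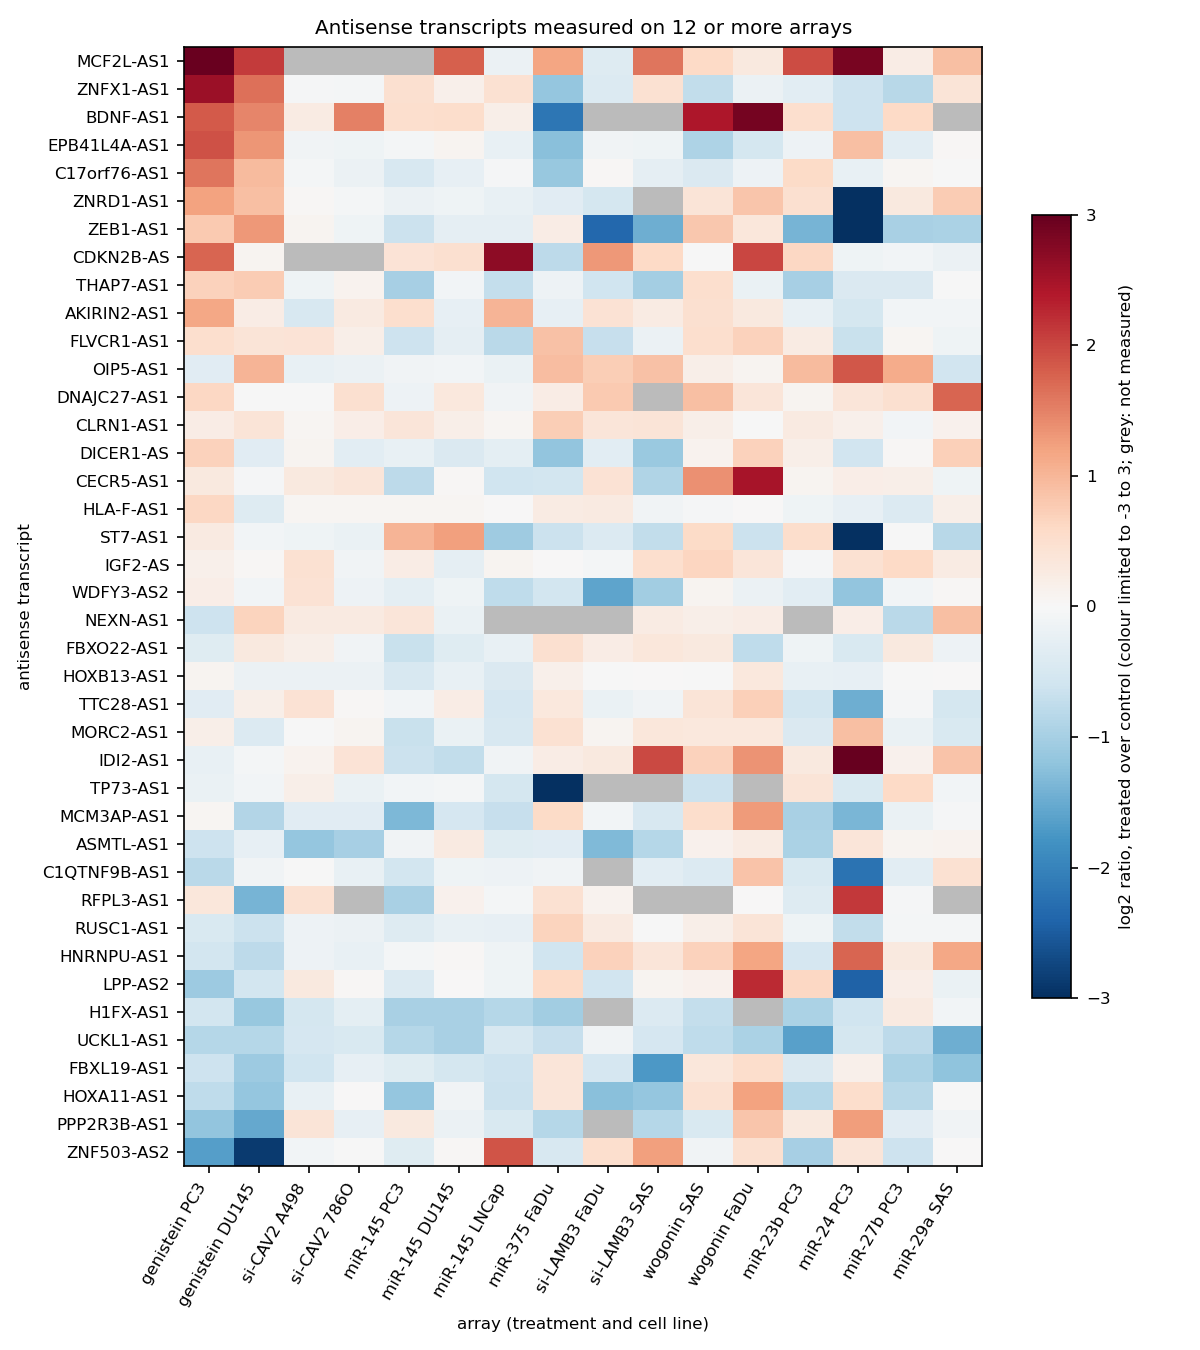
Log2 ratio (treated over control, colour scale) of antisense transcripts measured on at least 12 arrays (rows) on each of the 16 arrays (columns), with grey where the transcript was not above background in either channel and colours limited to 3 in each direction. The genistein columns hold the highest values of ZNFX1-AS1 (2.57) and the lowest of ZNF503-AS2 (-2.88), and the miR-24 column the lowest of ZEB1-AS1 (-3.11).

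Genistein moved antisense transcripts in both directions in the 2 PCa lines. The 3 snoRNA hosts ZNFX1-AS1, EPB41L4A-AS1 and C17orf76-AS1 rose in both PC3 and DU145, together with BDNF-AS1, MCF2L-AS1, AFAP1-AS1 and ZEB1-AS1, and ZNF503-AS2 and PPP2R3B-AS1 had the lowest means among the limma calls. Of 47 transcripts measured on both arrays, 11 were past 0.5 in both lines upward (7.83% of all names were) and 9 downward (7.22% of all names). With limma, 12 of the 47 passed an adjusted p of 0.05, 7 higher and 5 lower, against 9.41% of all probes. The median log2 ratio was 0.09 over the 47 transcripts and 0.02 over all names measured.

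ZNFX1-AS1 had log2 ratios of 2.57 in PC3 and 1.65 in DU145, with a mean of 2.11 (SE 0.27, limma adjusted p = 0.0089). Its partner ZNFX1, an interferon-induced helicase-like protein, had 0.15 and -0.20 on the same arrays. The antisense transcript was thus high and its partner near 0 in both lines. EPB41L4A-AS1 had 1.91 in PC3 and 1.34 in DU145 (mean 1.62, SE 0.17, limma adjusted p = 0.0055), while its partner was not above background in PC3. C17orf76-AS1 had 1.60 and 0.94 (mean 1.27, SE 0.19, limma adjusted p = 0.011). Across the other 14 arrays these 3 transcripts stayed at or below 0.91, and each had its lowest value with miR-375 in FaDu, with -1.17 for ZNFX1-AS1, -1.27 for EPB41L4A-AS1 and -1.13 for C17orf76-AS1.

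ZNF503-AS2 had -1.66 in PC3 and -2.88 in DU145 (mean -2.27, SE 0.50, limma adjusted p = 0.029). Its partner ZNF503, a zinc finger repressor of transcription, was lower in both lines as well, with -0.90 and -1.25, but did not pass the test (mean -1.07, SE 0.56, limma adjusted p = 0.26). PPP2R3B-AS1 had -1.19 and -1.53 (mean -1.36, limma adjusted p = 0.031), while PPP2R3B, which encodes a regulatory subunit of protein phosphatase, had a mean of -0.02. HNRNPU-AS1 (mean -0.67) and RUSC1-AS1 (-0.56) also fell with limma. UCKL1-AS1 was called too (-0.85), but it was below 0 on all 16 arrays of the study with a median of -0.78, so this call is not read as particular to genistein. HNRNPU itself, an RNA-binding nuclear protein, fell too (mean -0.57, SE 0.14, limma adjusted p = 0.046), and its probe lies on the same strand as that of HNRNPU-AS1.

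BDNF-AS1 had 1.83 in PC3 and 1.46 in DU145 (mean 1.64, SE 0.30, limma adjusted p = 0.018). The partner BDNF, a neurotrophic growth factor, had 1.20 and 0.02, so that only the antisense transcript was past 1 in both lines. ZEB1-AS1 had 0.78 and 1.29 (mean 1.03, SE 0.24, limma adjusted p = 0.034), against -0.13 and 0.84 for ZEB1, a transcription factor that represses epithelial genes. MCF2L-AS1 had 2.96 and 2.09 (mean 2.53, SE 0.58, limma adjusted p = 0.034) and was above background in the control channel of DU145 only. It was above 0 on 11 of the 13 arrays that measured it (median 1.17), and its genistein mean was 1.54 when the mean of the other treatments was subtracted and 1.10 with normexp. AFAP1-AS1, which is studied as a cancer-associated RNA, was not well above background in either control channel and was at least 2.14-fold higher with genistein (limma adjusted p = 0.026). It was measured on 9 of the 16 arrays, and the arrays that did not measure it also entered the spread behind this p. MRVI1-AS1 had 2.51 and 1.52 but did not pass the test (SE 0.65, limma adjusted p = 0.089), and its mean turned to -0.19 when the mean of the other treatments was subtracted.

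HOXA11-AS1 had -0.77 and -1.17 and lay just outside the call (mean -0.97, SE 0.26, limma adjusted p = 0.051). HOXA11 had 0.31 and -0.47. The transcript was lower in both lines and its partner lay on either side of 0. Over all 16 arrays HOXA11-AS1 was below 0 on 11 (median -0.44). With 12 called of 47, the count fell to 3 when the PC3 array was left out and to 4 without the DU145 array, and it was 0 (20 at an unadjusted p under 0.05) when the fit used the genistein arrays alone, since the main fit takes its spread from all treatments with more than 1 line. When a spot had to be above background in both channels, 7 transcripts were past 0.5 upward and 7 downward. With normexp background correction, which pulls dim probes toward 0, 6 were past it upward and 4 downward. With slide means removed limma called 8, of which 6 were higher and 2 lower (1838 of 25752 probes were called). With both channels required it called 11 of 33, against 2392 of 21402 probes. The shares of all names past 0.5 under these alternatives are not given here or below.

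**Figure D2:**
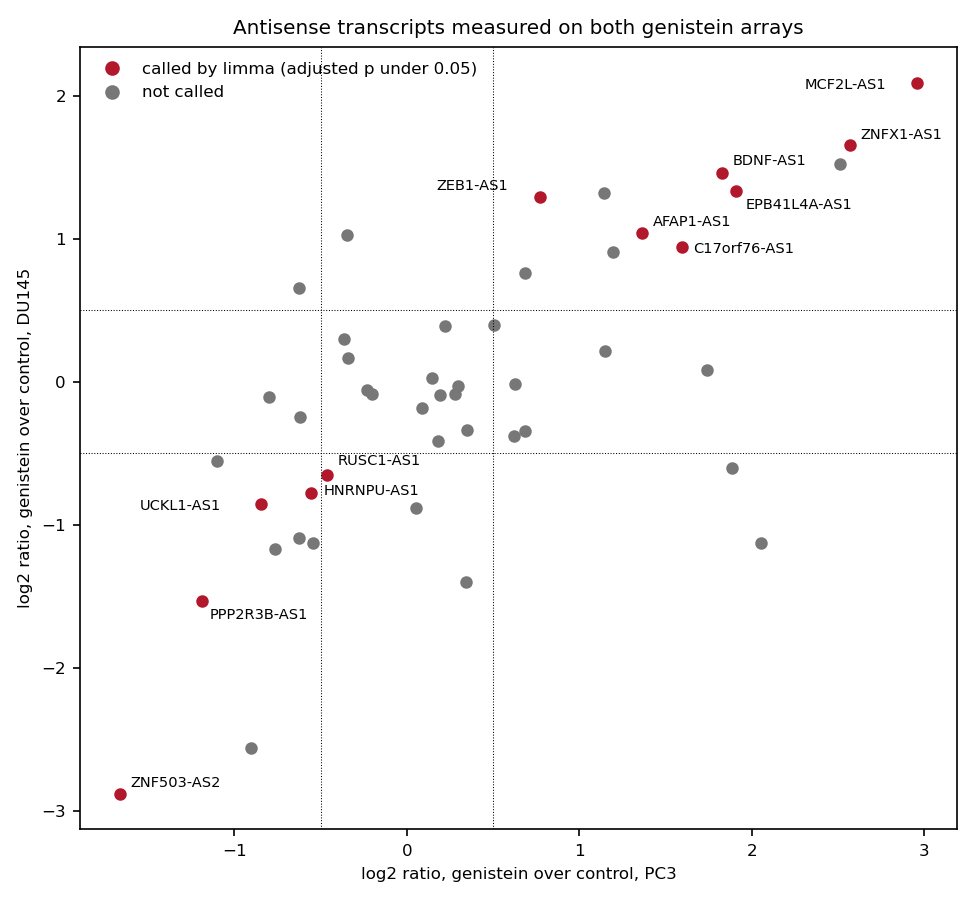
Log2 ratio of each antisense transcript measured on both genistein arrays, PC3 on the horizontal axis and DU145 on the vertical axis, with limma calls in colour and named. Called transcripts lie in the upper right (ZNFX1-AS1 at 2.57 and 1.65) or lower left corner (ZNF503-AS2 at -1.66 and -2.88).

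With si-LAMB3 each antisense transcript called by limma was lower in both FaDu and SAS. LAMB3 itself had -2.50 in FaDu but -0.89 in SAS, within the range of the other arrays. Knock-down in SAS is thus not shown. LAMB3 encodes a chain of laminin-332, which anchors epithelial cells to the basement membrane. Among the limma calls ZEB1-AS1 had the lowest mean, followed by MRPL23-AS1, WDFY3-AS2, HOXA11-AS1, FBXL19-AS1 and ASMTL-AS1. Of 35 transcripts measured, 3 were past 0.5 upward (7.64% of all names) and 8 downward (7.12% of all names). With limma 6 of 35 passed and each of them was lower (7.43% of all probes passed in either direction). The median was -0.16 over the transcripts and 0.05 over all names.

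ZEB1-AS1 had -2.35 in FaDu and -1.47 in SAS (mean -1.91, SE 0.24, limma adjusted p = 0.0050). ZEB1 had -0.58 and 0.03. HOXA11-AS1 had -1.25 and -1.15 (mean -1.20, SE 0.26, limma adjusted p = 0.030), against -0.72 and 0.33 for HOXA11. In both pairs the antisense transcript was past -1 in each line and the partner was not. FBXL19-AS1 had -0.50 and -1.73 (mean -1.11, limma adjusted p = 0.041), and FBXL19, part of a complex that recognises unmethylated CpG islands, had 0.06 and 0.14. Over all 16 arrays FBXL19-AS1 was below 0 on 12 (median -0.51) and HOXA11-AS1 on 11 (median -0.44). ASMTL-AS1 had -1.33 and -0.85 (mean -1.09, limma adjusted p = 0.016). MRPL23-AS1 had -0.64 and -2.08 (mean -1.36, limma adjusted p = 0.025). It was measured on 6 of the 16 arrays, and the arrays that did not measure it also entered the spread behind this p. RAD21-AS1 was not above background in either treated channel and was at least 2.98-fold lower, without passing the test (limma adjusted p = 0.083).

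WDFY3-AS2 is a case in which the probes of 1 transcript went apart. Its brighter probe (chr4:85890940-85890999, plus strand, hg19) had -1.58 in FaDu and -1.05 in SAS (mean -1.32, SE 0.22, limma adjusted p = 0.014). The dimmer one (chr4:85887742-85887801, plus strand) had 1.76 and 1.88 on the same arrays, so that the mean over both probes was 0.25. Which of the 2 follows the transcript was not tested. Their sequences are shown so that the disagreement can be traced.
WDFY3-AS2, brighter probe: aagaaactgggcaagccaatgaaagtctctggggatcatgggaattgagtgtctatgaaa
WDFY3-AS2, dimmer probe: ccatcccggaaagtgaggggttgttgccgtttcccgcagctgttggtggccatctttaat
For si-LAMB3 the number of calls was 4 without the FaDu array and 1 without the SAS array, and 0 (13 at an unadjusted p under 0.05) with its own arrays alone. With normexp 1 transcript was past 0.5 upward and 2 downward. With slide means removed limma called 4, each lower (728 of 24978 probes were called).

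BDNF-AS1, CECR5-AS1 and HNRNPU-AS1 rose with wogonin in the squamous lines. UCKL1-AS1 was called lower (mean -0.86), near its median of -0.78 over all 16 arrays, and this call was lost without either line and with slide means removed. Of 43 transcripts measured, 7 were past 0.5 upward (8.2% of all names) and 2 downward (3.65% of all names), and 4 passed with limma (3.49% of all probes). The median was 0.32 over the transcripts and 0.08 over all names. BDNF-AS1 had 2.43 in SAS and 2.86 in FaDu. It was not above background in either control channel and was at least 4.35-fold higher (limma adjusted p = 0.0078), while BDNF had 0.42 and -1.03. CECR5-AS1 had 1.36 in SAS and 2.48 in FaDu (mean 1.92, SE 0.35, limma adjusted p = 0.030), with the control channel of FaDu below background. HNRNPU-AS1 had 0.70 and 1.19 (mean 0.95, limma adjusted p = 0.022), while HNRNPU had a mean of -0.01, so this pair did not move together here although its probes lie on the same strand. With both channels required, 5 transcripts were past 0.5 and 2 were called, and the calls numbered 3 without the SAS array, 1 without the FaDu array and 0 (11 at an unadjusted p under 0.05) with the wogonin arrays alone. With normexp 2 transcripts were past 0.5 upward and 1 downward, and with slide means removed 1 was called. Over all probes 295 of 25068 were called with slide means removed. With both channels required 477 of 19797 probes were called, and 26 transcripts were tested.

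With miR-145 few antisense transcripts, and few of all names, were past 0.5 in all 3 PCa lines. Among the genes that rose were 2 of the partners. Of 42 transcripts measured on its 3 arrays, 0 were past 0.5 upward (2.92% of all names) and 2 downward (2.63% of all names), which were H1FX-AS1 with -0.97, -0.96 and -0.85 in PC3, DU145 and LNCap and MCM3AP-AS1 with -1.35, -0.51 and -0.68. H1FX-AS1 was below 0 on 13 of the 14 arrays that measured it (median -0.66), and its miR-145 mean was -0.38 when the mean of the other treatments was subtracted. Neither passed with limma (adjusted p = 0.064 and 0.063). UCKL1-AS1 was the 1 transcript called (mean -0.78, SE 0.13, limma adjusted p = 0.011), against 6.61% of all probes. This mean equals its median over all 16 arrays, and it was not called without the PC3 or without the DU145 array.

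The interferon-induced partners ZNFX1 and HLA-F, a non-classical HLA class I gene, rose with miR-145. ZNFX1 had 3.56 in PC3, 2.29 in DU145 and 3.74 in LNCap (mean 3.19, limma adjusted p = 2.3e-04), whereas ZNFX1-AS1 had 0.48, 0.16 and 0.46 (mean 0.37, limma adjusted p = 0.35). HLA-F had 2.63, 2.21 and 2.79 (mean 2.55, limma adjusted p = 3.7e-04), whereas HLA-F-AS1 had 0.05, 0.06 and 0.00 (mean 0.04, limma adjusted p = 0.92). In both pairs every line had the partner past 2 and the transcript, read from its brightest probe, under 0.5. The dimmer probe of HLA-F-AS1 had -0.004 in PC3, 0.69 in DU145 and 0.45 in LNCap. Which of the 2 probes follows HLA-F-AS1 was not tested. ZNF503-AS2 and ZNF503 were high with miR-145 in LNCap only, with 1.89 and 2.69, and lay between -0.35 and 0.35 in PC3 and DU145.

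Si-CAV2 gave no limma call among 42 transcripts (0.123% of all probes were called, and 3 of the 42 had an unadjusted p under 0.05). CAV2 encodes caveolin-2, a component of membrane caveolae. No transcript was past 0.5 upward in both renal lines (1.29% of all names) and 1 was downward (2.3% of all names), which was ASMTL-AS1 with -1.16 in A498 and -0.99 in 786O (mean -1.07, SE 0.19, limma adjusted p = 0.12). ASMTL had a mean of -0.07.

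The other 5 treatments had 1 array each, so a limit of 1.0 was used and no test was possible. With miR-24 in PC3, 9 of 51 transcripts were past 1.0 upward (14.6% of all names) and 9 downward (10.9% of all names). With miR-375 in FaDu, 3 of 50 were upward (10.2% of all names) and 10 downward (12.4% of all names). With miR-23b in PC3, 3 of 52 were upward (6.48% of all names) and 4 downward (4.97% of all names). With miR-27b in PC3, 2 of 50 were upward (8.86% of all names) and 1 downward (4.99% of all names). With miR-29a in SAS, 3 of 48 were upward (6.85% of all names) and 3 downward (3.64% of all names). With normexp these counts were lower on each of the 5 arrays, from 0 for miR-23b and miR-27b to 6 for miR-24 over both directions.

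OIP5-AS1, the human counterpart of the conserved RNA cyrano, was past 0.9 on each of the 3 arrays in PC3 that share a control name, and its partner was higher still. It had 1.87 with miR-24, 1.11 with miR-27b and 0.95 with miR-23b, and OIP5, a kinetochore protein needed to load CENP-A, had 3.11, 2.40 and 1.61. The control channels of these 3 arrays differed by an SD of 0.19 to 0.20 over probes, against 0.53 to 0.63 for other pairs of PC3 controls, and the 3 ratios are not read as 3 independent observations. ZEB1-AS1 was below 0 on the same arrays, with -3.11, -0.97 and -1.39, while ZEB1 had -0.22, 0.41 and -0.07. ZNRD1-AS1 had -3.46 with miR-24 and 0.29 and 0.47 with miR-27b and miR-23b. RFPL3-AS1 had 2.11 with miR-24. Among these 3 arrays ZNRD1-AS1 and RFPL3-AS1 were past 1.0 on the miR-24 array alone.

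With miR-375 in FaDu the lowest values among transcripts above background in both channels were those of BDNF-AS1 (-2.16) and EPB41L4A-AS1 (-1.27), and the highest those of WT1-AS (1.40) and MCF2L-AS1 (1.17). MRPL23-AS1 was above background in the control channel only and was at least 28.7-fold lower on that array. With miR-29a in SAS, UCKL1-AS1 had -1.46 and FBXL19-AS1 -1.22, and HNRNPU-AS1 had 1.16 and MCF2L-AS1 0.90. The medians over all 16 arrays were -0.78 for UCKL1-AS1 and -0.51 for FBXL19-AS1. MCF2L-AS1 had -0.050 and -0.35 on the miR-375 and miR-29a arrays when the mean of the other treatments was subtracted. ZNF295-AS1 had -1.20 with miR-27b and 0.64 with miR-23b, both in PC3, and THAP7-AS1 had -0.99 with miR-23b.

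UCKL1-AS1 had a value below 0 on each of the 16 arrays, from -1.63 with miR-23b to -0.10 with si-LAMB3 in FaDu, with a median of -0.78, under every treatment and in every line. UCKL1, a uridine kinase-like enzyme, ran on either side of 0. No array had its dyes exchanged, so a value of the same sign on all arrays cannot be told apart from an unequal response of that probe to the 2 dyes. The 40 transcripts measured on at least 12 arrays had a median SD over arrays of 0.64, against 0.47 for the 19236 names measured as widely. BDNF-AS1 varied the most (SD 1.31), and CLRN1-AS1 (0.20), HOXB13-AS1 (0.21) and HLA-F-AS1 (0.25) the least. The SD of HLA-F-AS1 holds for its brightest probe, which had an r of -0.02 with the dimmer one.

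Whether a transcript and its partner moved together over the arrays could be followed for 33 pairs. Pearson's r, given as a description, had a median of 0.17 (Spearman's rho 0.22) and ran from -0.66 to 0.92. It was above 0 for 23 pairs, above 0.5 for 5 and below -0.5 for 1. No such values are given for unrelated pairs of names, so these counts are not read as particular to the pairs. The points of a pair share the array, the dyes and, on 3 arrays, a control of 1 name. The median was 0.24 for the 12 pairs whose starts lay within 1000 bases, 0.21 for 7 pairs with starts farther apart outside the partner, 0.12 for 2 pairs with the start inside it and 0.08 for 12 pairs with no RefSeq start for both.

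**Figure D3:**
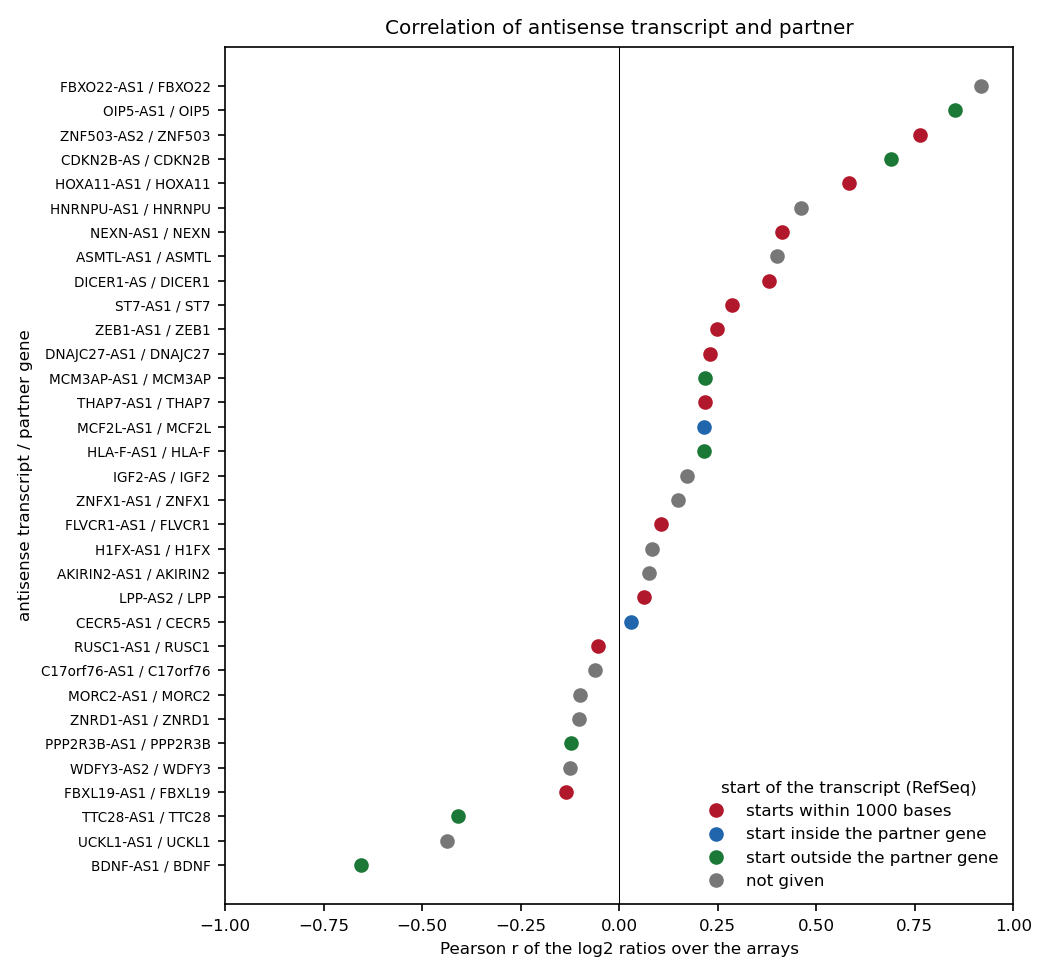
Pearson's r between the log2 ratios of each antisense transcript and its partner over the arrays on which both were measured (11 to 16), 1 point per pair in order of r. FBXO22-AS1 is highest at 0.92 and BDNF-AS1 lowest at -0.66, and 23 of the 33 points lie above 0.

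FBXO22-AS1 had the highest r of 0.92 with FBXO22, a ubiquitin ligase subunit, over 16 arrays, at small values on both sides. The transcript ran from -0.76 with wogonin in FaDu to 0.49 with miR-375 in FaDu, and FBXO22 had -0.09 and 0.76 there. OIP5-AS1 and OIP5 followed with 0.85 over 16 arrays. ZNF503-AS2 and ZNF503 had 0.76 over 16 arrays, with the lowest values of the transcript under genistein and the highest of both under miR-145 in LNCap. CDKN2B-AS, a transcript of the INK4 locus, had 0.69 with the cell cycle inhibitor CDKN2B over 13 arrays, and both were highest with miR-145 in LNCap (2.68 and 2.61). HOXA11-AS1 and HOXA11 had 0.58 over 15 arrays.

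At the other end BDNF-AS1 and BDNF had -0.66 over only 11 arrays. BDNF-AS1 was high with wogonin in FaDu (2.86) where BDNF had -1.03, and low with miR-24 (-0.61) where BDNF had 2.35. UCKL1-AS1 had -0.44 with UCKL1 and TTC28-AS1 -0.41 with TTC28, each over 16 arrays. FBXL19-AS1 (-0.13) and WDFY3-AS2 (-0.12) had values of r near 0. ZNFX1-AS1 and ZNFX1 lay between the 2 ends with 0.15 over 16 arrays, and had 0.66 when the 2 genistein arrays were left out.

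Probes of the same transcript were compared to see how far r can rise for 1 RNA. Over 10 comparisons in 8 transcripts their median r was 0.59, from -0.12 to 0.93, and it was 0.93 for the 2 probes of ZEB1-AS1 and -0.02 for those of HLA-F-AS1. The 3 probes of TTC28-AS1 (chr22:28320848-28320907, chr22:28320884-28320943 and chr22:28398539-28398598, plus strand, hg19) gave 0.84 for the first 2, which overlap by 24 bases shown in capitals, and 0.00 and -0.12 for these against the distant one. The r of -0.41 between TTC28-AS1 and TTC28 holds for the first probe.
TTC28-AS1, first probe: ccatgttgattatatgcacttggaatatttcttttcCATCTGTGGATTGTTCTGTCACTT
TTC28-AS1, second probe: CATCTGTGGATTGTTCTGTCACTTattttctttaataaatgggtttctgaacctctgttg
TTC28-AS1, distant probe: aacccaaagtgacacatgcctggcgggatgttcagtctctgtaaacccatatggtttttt

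**Figure D4:**
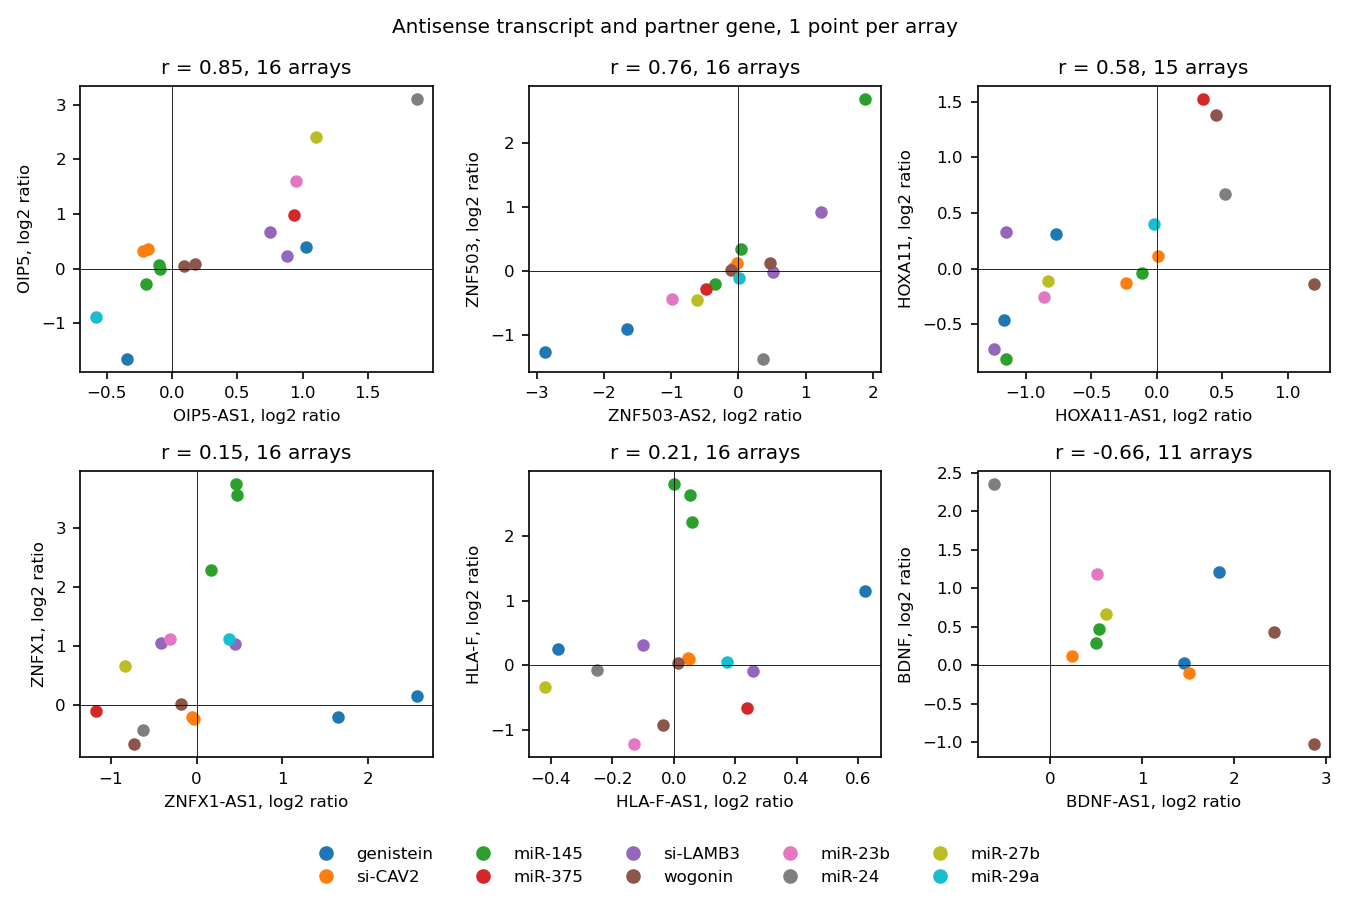
Log2 ratio of antisense transcript and partner on each array for selected pairs, 1 panel per pair, with the transcript on the horizontal and the partner on the vertical axis. OIP5-AS1 (r 0.85) and ZNF503-AS2 (r 0.76) follow their partners, while ZNFX1-AS1 lies apart from ZNFX1 under genistein (2.57 against 0.15 in PC3) and BDNF-AS1 from BDNF under wogonin (2.86 against -1.03 in FaDu).

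A transcript and its partner were more than 1.0 apart in the same direction in every line for few pairs of each treatment. The share among unrelated pairs of names is not given. With genistein 3 of 40 pairs had the transcript above (AFAP1-AS1, MCF2L-AS1 and ZNFX1-AS1) and 0 below. With miR-145 2 of 34 had it below, which were the HLA-F and ZNFX1 pairs. With si-LAMB3 4 of 30 had it below (DLX6-AS1, RAD21-AS1, WDFY3-AS2 and ZEB1-AS1), and none with normexp. DLX6-AS1 had -1.19 in FaDu and -1.14 in SAS, and DLX6, a homeobox gene of the craniofacial skeleton, had 1.10 and 0.78, but neither passed with limma (adjusted p = 0.14 and 0.15). With wogonin BDNF-AS1 was above BDNF, and ATPAF1-AS1 (now TEX38) below ATPAF1, an assembly factor of the mitochondrial ATP synthase. ATPAF1 had 2.20 in SAS and 2.53 in FaDu (limma adjusted p = 0.0010) with neither control channel above background. With normexp 0 wogonin pairs were this far apart. With si-CAV2 0 of 37 pairs were this far apart.

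Levels in the control channel showed which lines carried each transcript before treatment. A level is the log2 signal relative to the 75th percentile of its array, and it is compared between lines for the same probe only, since probes differ in brightness. PC3, FaDu and SAS had 3 control samples each, of mixed kinds (untreated or vehicle, DMSO, control siRNA or control miRNA), DU145 had 2 and the others 1. Of the 95 transcripts, 33 in PC3, 29 in FaDu and 33 in SAS were above background in all 3 control samples. In DU145 45 were in both samples, and 47 in LNCap, 48 in A498 and 41 in 786O were in the 1 sample. More samples had to pass where a line had more, so these counts are not compared between lines. The share over all names was not counted. With limma 18 of 39 differed between FaDu and PC3 (43.2% of all probes), 19 of 39 between SAS and PC3 (42.3%) and 12 of 38 between SAS and FaDu (28.1%), the last being 6 with normexp.

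AFAP1-AS1 was above background in FaDu and A498 only. Its level was 0.44 to 0.97 in the 3 FaDu samples and 2.35 in A498, and at most -4.63 in the others. FaDu was at least 35.5-fold above PC3 (limma adjusted p = 1.0e-06) and at least 47.0-fold above SAS (limma adjusted p = 6.2e-07). The partner AFAP1, an actin filament-associated protein, went the other way, with a level of -2.30 ± 0.43 (SD, n = 3) in FaDu and -0.56 ± 0.35 (SD, n = 3) in PC3 (difference -1.74, limma adjusted p = 0.0016). GNAS-AS1, of the imprinted GNAS locus, was above background in SAS, DU145, A498 and 786O. SAS had -0.50 to 0.71 and was at least 24.5-fold above PC3 (limma adjusted p = 6.6e-07) and at least 33.7-fold above FaDu (limma adjusted p = 1.4e-06), while GNAS did not pass the test in either contrast (difference -0.32 and -0.64).

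HOXA11-AS1 was highest in PC3, with 3.05 ± 0.86 (SD, n = 3), against -0.96 ± 0.15 in FaDu and 0.13 ± 0.37 in SAS (SD, n = 3 each), and the PC3 samples did not overlap with either. HOXA11 differed from PC3 by -2.19 in FaDu (limma adjusted p = 0.0020) and by -1.15 in SAS (limma adjusted p = 0.0499). ZNF503-AS2 had 1.69 ± 1.14 in PC3, -1.95 ± 0.68 in FaDu and -3.11 ± 0.09 in SAS (SD, n = 3 each), and ZNF503 had 5.11 ± 0.72, 2.20 ± 0.23 and 0.36 ± 0.29. Both members of these pairs were thus highest in PC3 among the 3 lines. DLX6-AS1 was above background in FaDu and SAS and not in PC3, and was at least 3.73-fold and 3.50-fold higher there (limma adjusted p = 1.4e-05 and 1.7e-05). DLX6 was also higher in both, and not above background in PC3 (limma adjusted p = 7.5e-07 and 1.1e-06).

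A1BG-AS1 and ZNF295-AS1 were above background in PC3 and in neither squamous line. FaDu was at least 7.82-fold lower for A1BG-AS1 and at least 6.44-fold lower for ZNF295-AS1. WT1-AS, which lies at the Wilms tumour gene, was above background in PC3, FaDu and 786O, and was at least 9.02-fold lower in SAS than in PC3. C17orf76-AS1 was 2.32 higher in FaDu and 2.36 higher in SAS than in PC3 on the log2 scale (limma adjusted p = 6.4e-05 and 5.9e-05), while C17orf76 had differences of -0.57 and -0.67 (limma adjusted p = 0.078 and 0.044). HLA-F-AS1 was 1.19 and 1.31 higher, and HLA-F had differences of 0.18 and -1.54. The values of HLA-F-AS1 hold for its brightest probe only (mean log2 signal 14.60), and its dimmer probe (3.86) is not read here. HOXB13-AS1 differed by only -0.67 in FaDu and -0.50 in SAS (limma adjusted p = 0.012 and 0.048). HOXB13, a prostate homeobox gene, differed by -5.47 in FaDu (limma adjusted p = 2.4e-05) and was not above background in SAS.

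**Figure D5:**
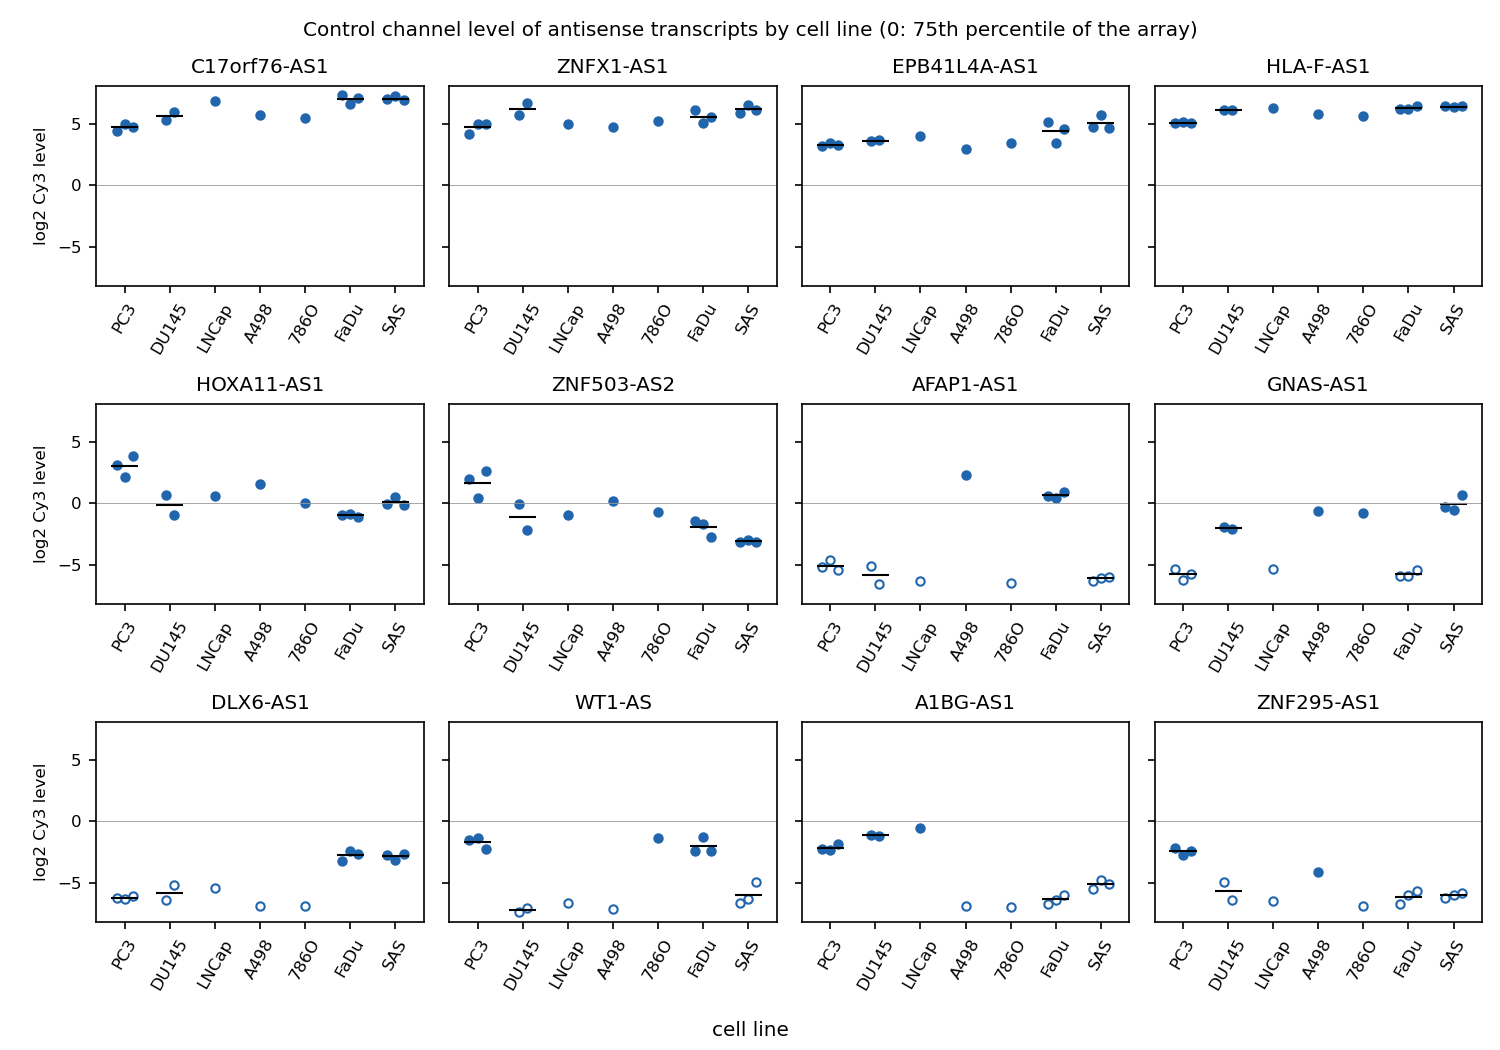
Control-channel level (log2 signal relative to the 75th percentile of the array) of selected antisense transcripts in each control sample (point) by cell line, with open points for samples not above background and a bar at the mean where a line has more than 1 sample. AFAP1-AS1 is high in FaDu (0.44 to 0.97) and A498 (2.35), and HOXA11-AS1 and ZNF503-AS2 are highest in PC3.

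Of the transcripts called between lines, the partner could be tested for 15 in FaDu against PC3, 16 in SAS against PC3 and 9 in SAS against FaDu. It was called for 7, 10 and 3 of them, where 43.2%, 42.3% and 28.1% of all probes were called, in the same direction for 6, 8 and 2 and in the opposite direction for 1, 2 and 1. The contrasts share the PC3, FaDu or SAS samples and are not independent of each other.

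Among groups of transcripts listed by the kind of partner or by earlier study, both antisense transcripts of HOX genes (HOXA11-AS1 and HOXB13-AS1) were measured under each treatment with more than 1 line, and HOXA11-AS1 with si-LAMB3 was the 1 call. Of 11 transcripts at genes of transcription factors or zinc finger proteins, 4 or 5 were measured, with 2 called higher and 1 lower under genistein, 1 lower under si-LAMB3 and none under the other 3. Over all probes 9.41% were called with genistein, 7.43% with si-LAMB3 and 3.49% with wogonin, and the lists are too short to be read against these shares. Of 14 transcripts often studied in cancer, 5 to 8 were measured. With genistein 3 of 8 were called higher (AFAP1-AS1, BDNF-AS1 and ZEB1-AS1, median of the list 0.69), with si-LAMB3 2 of 5 lower (HOXA11-AS1 and ZEB1-AS1, median -1.16) and with wogonin 1 of 7 higher (BDNF-AS1, median 0.70). ZEB1-AS1 thus moved up under genistein in the PCa lines and down under si-LAMB3 in the squamous lines, and the lines differ together with the treatments.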

How the data were processed

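Cells of 7 lines were profiled by the authors on 2-colour Agilent arrays, with control RNA in Cy3 and treated RNA in Cy5 on every array and no dye exchange. The scanner files were made with Agilent Feature Extraction 10.7.3.1 per the file headers. The deposited log10 ratio of each spot (background-subtracted and dye-normalized by the software) and the deposited intensity of each channel were used. The 16 arrays of the first design lay on 2 slides of 8, and 8 arrays of another design were not used. The number of unused columns of per-sample values was 0. Probe positions were on hg19, and the newer of 2 annotation versions in the files gave the gene names (the older one held 54 matching names).

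Log10 ratios were multiplied to log2, outlier and control spots were left out, and spots of a probe were averaged. A transcript or partner was read from its brightest probe. Treatments with 2 or 3 lines were tested with limma 3.58.1 in R 4.3.3 (lmFit and eBayes over all 16 arrays, mean against 0). Benjamini-Hochberg ran over all probes measured on the arrays of the treatment. The lines stand as replicates, and p-values measure only the spread between lines, pooled over the treatments with more than 1 line. That spread includes arrays on which the probe was not measured. Levels of the control channel were log2 intensities minus each array's 75th percentile, with the PC3 control of the miR-23b, miR-24 and miR-27b arrays, which carries 1 name, averaged as 1 sample. "At least" folds take the dim channel at the higher of its own signal and the lowest signal well above background. The functions were tested on simulated data. Python 3.11.15, pandas 2.3.3 and scipy 1.17.1 were used for the rest. The number of arrays limits the precision.

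Named are the largest changes past 1.0 in every line of a treatment (5 in each direction, or 2 past 0.5 where none passed), the 2 largest in each direction on a single array, the 5 highest and 5 lowest pair correlations, the 5 brightest transcripts and largest differences of the cell lines, list members called, and all their partners. Not all levels and line differences chosen this way are described. Those of TP73-AS1, DICER1-AS and C1QTNF9B-AS1, among others, are left out. Others (such as RUSC1-AS1, ATPAF1-AS1 and CLRN1-AS1) were chosen after their values were seen. The transcripts, lists (HOX antisense, transcription factor partner, studied in cancer) and tests were chosen with earlier results of these data known. Alternatives were normexp with loess (offset 50), median centring, the mean over probes, both channels above background and the log ratio minus that of the other treatments. Further ones were a limit of 1.0, each line left out, the treatment's own arrays alone and removal of slide means. For the control channel they were quantile normalization, normexp, slide as a block, no averaging of the control of 1 name and no dim filter.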

Additional observations from a re-analysis of the deposited data

Results flagged for a closer look

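ST7-AS1, which starts near the tumour suppressor candidate ST7, went in opposite directions between PCa lines given miR-145. It had log2 ratios of 1.01 in PC3 and 1.24 in DU145 and of -1.07 in LNCap, a gap of 2.31 between DU145 and LNCap. Each line had 1 array, so the difference was not tested. ST7-AS1 was also past 1.0 with miR-24 in PC3 (-3.19, with the treated channel below background).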

How the results depend on the processing

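The counts of calls and the values of dim transcripts depended on how background was handled. The share of all names past a size limit is not given for the alternatives. A lower count below is therefore not read as a result about these transcripts alone. Of 39 log2 ratios of named transcripts, normexp moved 31 and subtracting the other treatments moved 21 and turned 3 by sign. The median r over pairs ran from 0.08 to 0.19 over its alternatives. Normexp with an offset of 50, which pulls ratios of dim probes toward 0 by construction, took the transcripts past the limit from 20 to 10 for genistein, 11 to 3 for si-LAMB3, 9 to 3 for wogonin, 18 to 6 for miR-24, 13 to 5 for miR-375, 6 to 1 for miR-29a, and to 0 for si-CAV2, miR-145, miR-23b and miR-27b. Their split into higher and lower was 6 and 4 for genistein, 1 and 2 for si-LAMB3, 2 and 1 for wogonin, 4 and 2 for miR-24, 0 and 5 for miR-375 and 1 and 0 for miR-29a. It left 0 pairs over 1.0 apart for si-LAMB3 and for wogonin, and 6 calls between SAS and FaDu.
With both channels above background, there were 8 for miR-375 (2 higher, 6 lower), 5 for wogonin (3 and 2), 1 for miR-23b (0 and 1), 11 for miR-24 (4 and 7) and 3 for miR-29a (1 and 2). With this filter limma called 2 of 38 for miR-145 (1388 of 20666 probes) and 2 of 26 for wogonin (477 of 19797 probes). Median centring gave 1 for miR-145, and the mean over probes gave 2 limma calls for miR-145 (1147 of 18343 names were called). With the mean of the other treatments subtracted there were 3 for si-CAV2 (1 higher, 2 lower), 7 for si-LAMB3 (1 and 6) and 14 for wogonin (12 and 2). A limit of 1.0 gave 9 for genistein (7 and 2), 0 for si-CAV2, 0 for miR-145, 5 for si-LAMB3 (0 and 5) and 2 for wogonin (2 and 0).
With the treatment's own arrays limma called 0 for genistein, miR-145, si-LAMB3 and wogonin, where 20, 17, 13 and 11 had an unadjusted p under 0.05 and the spread rests on 2 or 3 arrays. Over all probes this fit called 146 of 23275 for miR-145 and 0 for genistein, si-LAMB3 and wogonin. With slide means removed limma called 8 for genistein (6 higher, 2 lower), 4 for si-LAMB3 (each lower), 3 for miR-145 and 1 for wogonin. Over all probes 1838 of 25752, 728 of 24978, 1522 of 23275 and 295 of 25068 were called in that order. Leaving out 1 line gave, in transcripts past 0.5, 32 to 33 for genistein, 2 to 5 for si-CAV2, 4 to 10 for miR-145, 23 to 26 for si-LAMB3 and 23 to 26 for wogonin, since fewer lines then had to pass. In limma calls it gave 3 to 4, 0 to 0, 0 to 1, 1 to 4 and 1 to 3, and in pairs over 1.0 apart 14 to 17, 1 to 2, 2 to 6, 11 to 13 and 8 to 12. Leaving out 1 control sample gave 17 to 22 calls for FaDu against PC3, 17 to 19 for SAS against PC3 and 10 to 14 for SAS against FaDu.
The log2 ratio of WDFY3-AS2 with si-LAMB3 turned to 0.25 with the mean over probes. With the mean of the other treatments subtracted MRVI1-AS1 turned to -0.19 with genistein, and MCF2L-AS1 to -0.050 with miR-375 and -0.35 with miR-29a, and the cause was not tested. No paired analysis was possible because each array already holds treated and control RNA and the replicate numbers name cell lines. A control channel not above background leaves the folds of AFAP1-AS1 with genistein and BDNF-AS1 with wogonin as bounds.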
